A study of Mus musculus with 8 samples.

Results

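The genes described here encode extracellular proteases and their inhibitors in the fetal mouse gonad. They were taken by name from the array annotation: matrix metalloproteinases (Mmp), the ADAMTS proteases and their non-catalytic ADAMTS-like relatives (Adamts, Adamtsl), the tissue inhibitors of metalloproteinases (Timp), the serpins (Serpin), the plasminogen activators Plat and Plau, and the urokinase receptor Plaur. The rule gave 139 of 45037 probe sets and 85 of 18193 genes: 18 MMPs, 15 ADAMTS proteases, 5 ADAMTS-like proteins, 4 TIMPs, 40 serpins and the 3 genes of the plasminogen activator system.

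Expression came from 8 Affymetrix Mouse Genome arrays, 2 for each of 4 groups, all at embryonic day 13 (E13) and all of strain C57BL6/J-Tg92. The sorted groups were EGFP-positive XX cells, labelled pre-granulosa cells (about 30000 cells per sample), and EGFP-positive XY cells, labelled Sertoli cells (about 22000). The gonad groups were XX ovaries and XY testes, with 4 gonads pooled per sample. The study asked which genes differ between XX and XY supporting cells and how far whole gonads show it. The EGFP transgene of this line is known to carry regulatory sequence of Sry, which the labels do not state, so the sorted cells are those in which that sequence is active. Nothing in the labels ties the replicates to separate animals or litters, so p-values measure the spread between these samples, which may be technical.

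As background, matrix metalloproteinases are zinc enzymes that cut collagens and other matrix proteins and are made as inactive precursors. Membrane-anchored members such as Mmp14 activate the gelatinase Mmp2 at the cell surface with Timp2 as a bridge, while TIMPs in excess block the active enzymes. ADAMTS proteases cut proteoglycans and procollagens, and serpins trap serine proteases such as the plasminogen activators in an irreversible complex. In the gonad at this age the testis is partitioning into cords with a basement membrane and new vessels, whereas the ovary keeps a looser organisation, and both processes involve matrix turnover.

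All values are on the log2 scale as deposited, so a difference of 1 is a 2-fold change. Each gene is read through its brightest probe set (by the mean of the 8 arrays), and other probe sets are given where they bear on a result. A level of 4.78 was taken as background, the highest value reached in XX arrays by 9 probe sets of Uty, Kdm5d and Eif2s3y, which are Y-linked and read as low as 3.11 there. Differences were tested with limma over all 45037 probe sets, and a gene is called, or said to be higher or lower, where the Benjamini-Hochberg adjusted p is at most 0.01, the rate the series text states. Differences are given with the standard error of the fit, with n = 2 arrays per group throughout.

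Sorted-cell and gonad arrays stood apart in scale. Array medians were 5.57 to 5.61 in the sorted cells and 5.96 to 5.99 in the gonads. Ranked values differed by at most 0.175 within the sorted set and 0.146 within the gonads, against a median of 0.383 between the sets. Comparisons of sorted cells with gonads therefore use arrays less their own median. The SD between replicates of the protease and inhibitor probe sets was 0.411 in pre-granulosa cells, 0.382 in Sertoli cells, 0.319 in ovaries and 0.185 in testes, against 0.198 to 0.531 over all probe sets. The first pre-granulosa array had a 3' minus 5' signal of 3.08 for actin and 3.68 for Gapdh, against 1.70 and 1.24 for the second, and from 1.57 to 2.51 for actin elsewhere. Markers of the sorted cell types were also read. Their lists were chosen with earlier results of these data known, so they are no independent check of the group labels. In Sertoli minus pre-granulosa, 8 of 12 Sertoli markers were higher and 4 of 10 pre-granulosa markers lower.

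Markers of other cell types differed in level between the sorted groups. The mean of 12 macrophage markers was 4.93 and 4.65 in the pre-granulosa arrays and 5.76 and 6.96 in the Sertoli arrays. C1qb was called higher, and 5 markers read at or under background on both pre-granulosa arrays against 1 in Sertoli cells. The mean of 5 fetal Leydig cell markers was 6.95 and 6.55 against 8.01 and 8.98, with 0 called. Endothelial markers (12 genes) averaged 5.28 and 5.95 against 6.32 and 6.57, with Robo4 called higher. Interstitial markers (8 genes) averaged 7.23 and 8.43 against 8.57 and 8.58, with 0 called. The mean of 5 platelet and megakaryocyte markers was 6.52 and 7.10 against 7.89 and 8.18, with 0 called and all 5 genes above in the Sertoli arrays without overlap. Germ cell markers (9 genes) averaged 4.23 to 4.50 in all sorted arrays against 8.49 to 8.79 in gonads. Of these 9, 1 was called lower in Sertoli cells than in pre-granulosa cells (limma adjusted p = 0.00739). Ddx4 and Dazl were at or under background in both sorted groups. The part of these cells in the differences between the sorted groups was not tested.

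Of the 85 genes, 56 read above background in at least 1 array, 36 in all arrays, and 29 in none. Detection was uneven between families. All 4 TIMPs, 13 of 15 ADAMTS, 4 of 5 ADAMTS-like, 11 of 18 MMPs, the 3 plasminogen activator genes and 21 of 40 serpins passed background somewhere. The 4 collagenases (Mmp1a, Mmp1b, Mmp8 and Mmp13), which cut fibrillar collagen, did not pass it on any array. They belong to the chromosome 9 cluster, of whose 9 MMP genes only Mmp3 and Mmp7 passed. Both gelatinases (Mmp2 and Mmp9) and the 4 membrane-type enzymes (Mmp14, Mmp16, Mmp17 and Mmp24) passed. In both arrays of a group 38 genes were above background in pre-granulosa cells, 42 in Sertoli cells, 51 in ovaries and 50 in testes. The same level was applied to values as deposited, and the gonad arrays had higher medians. The counts of sorted cells and of gonads are therefore not comparable with each other. Over all 18193 genes, 15750 read above background in at least 1 array.

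Sertoli cells and pre-granulosa cells differed in 2 serpins. Serpina5, the protein C inhibitor, was higher in Sertoli cells, and Serping1, the C1 inhibitor that restrains the first complement protease, was lower. These were 2 of 85 genes (2.35%), where 2.67% of all 18193 genes were called (1.62% higher and 1.05% lower), a share near that background. The median difference was 0.04 over the 85 genes and 0.04 over all genes. At an adjusted p of 0.05 the count was 7 genes (8.24%, against 7.38% of all genes). Serpina5, Serpina3a, Mmp2, Adamts16 and Adamts9 passed with Sertoli cells above (4.32% of all genes), and Serping1 and Mmp14 with pre-granulosa cells above (3.06%). The arrays of the sorted groups did not overlap for 20 genes with Sertoli cells above and 15 with pre-granulosa cells above (23.5% and 17.6%, against 24.2% and 19.1% of all genes).

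Serpina5 read 4.05 and 3.88 in pre-granulosa cells, 6.86 and 6.56 in Sertoli cells, 4.25 and 4.26 in ovaries, and 5.80 and 5.37 in testes. Neither XX group was above background, while all 4 XY arrays were. The Sertoli minus pre-granulosa difference was 2.74 ± 0.20 (limma adjusted p = 0.00206). With the dim group set at background, Sertoli cells were at least 3.79-fold higher. This is a bound because the pre-granulosa level itself was not measured.

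Serping1 read 9.73 and 8.89 in pre-granulosa cells, 6.81 and 6.24 in Sertoli cells, 8.98 and 9.12 in ovaries, and 8.52 and 8.55 in testes. The Sertoli arrays were the low group, and both gonads lay near the pre-granulosa level. The difference was -2.79 ± 0.32 (limma adjusted p = 0.00726), a 6.93-fold lower level in Sertoli cells. Both calls held without either pre-granulosa array and were lost without either Sertoli array, with differences of similar size. Serpina5 had a difference of 2.59 without Sertoli replicate 1 and 2.89 without replicate 2, and Serping1 had -3.08 and -2.51. Serpina5 had an adjusted p of 0.0109 without Sertoli replicate 1 and 0.0110 without replicate 2, and Serping1 had 0.0179 and 0.0355. With either ovary array left out 0 of the 2 calls remained, and with either testis array 1 remained.

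**Figure D1:**
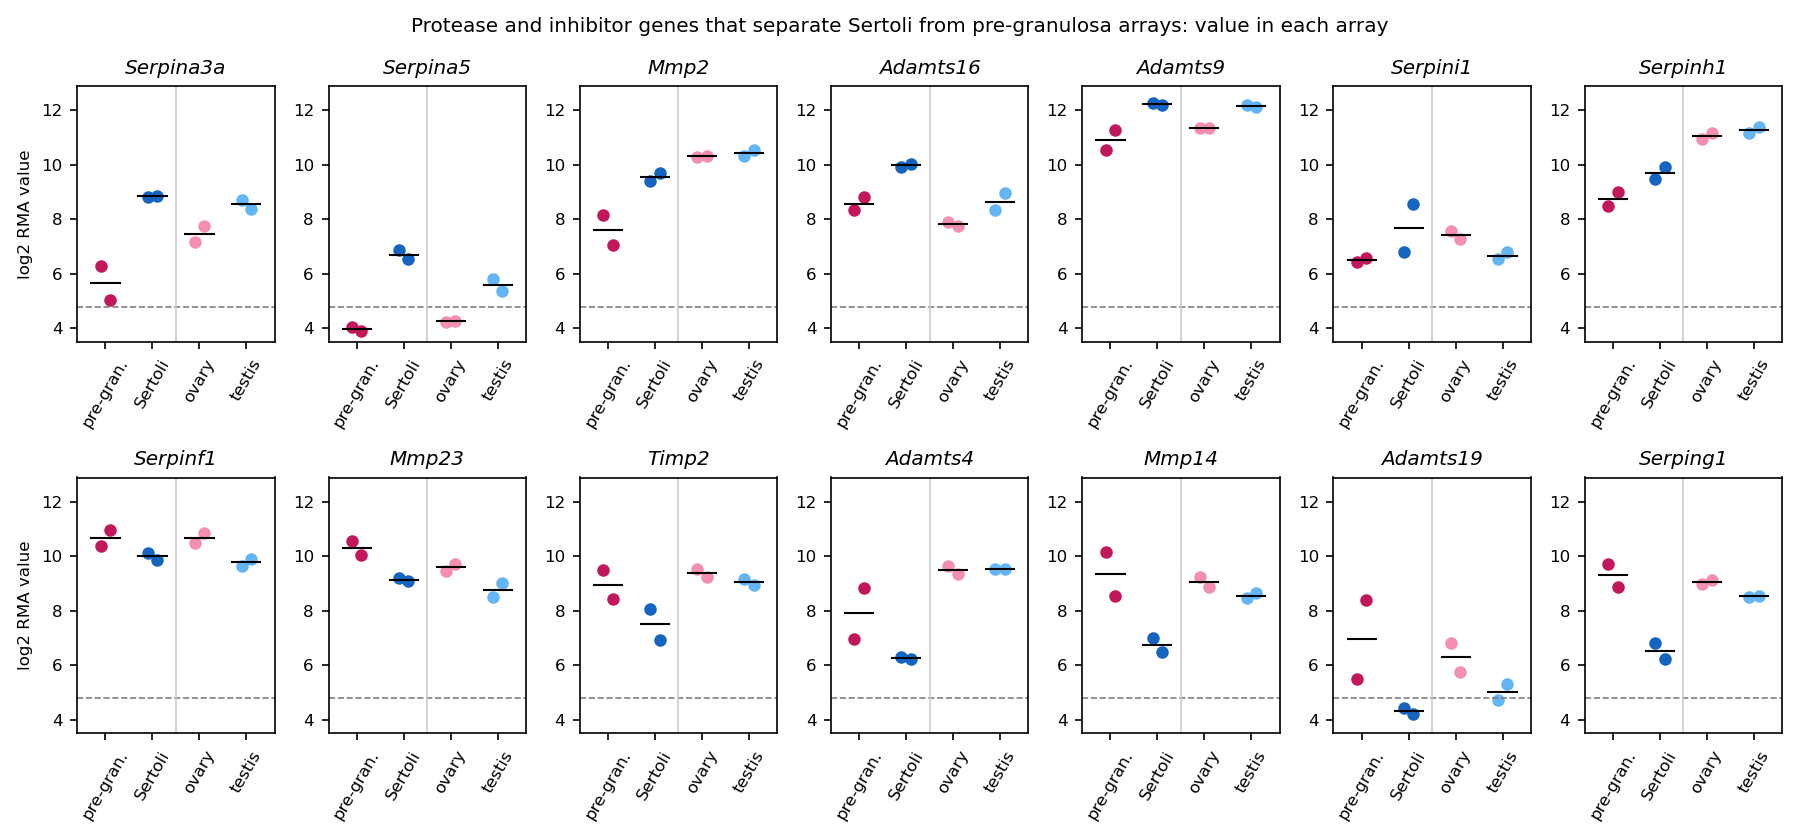
Log2 value in each array for 14 protease and inhibitor genes, the 2 called for Sertoli minus pre-granulosa and the 6 highest and 6 lowest uncalled differences without overlap (points: arrays; bars: mean of 2; dashed line: background, 4.78). Serpina5 lay under the line in both XX groups, and Serping1 was lowest in the Sertoli arrays (6.81 and 6.24).

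The promoters of 3 genes described in the sorted-cell comparison are shown from RefSeq on build GRCm38.p6, from 250 bases before to 50 bases after the start of transcription. Serpina5 was called higher in Sertoli cells, while Mmp14 and Timp2, partners in Mmp2 activation, were not called. Capitals mark a match to AACAAT, a core recognised by SOX factors. Serpina5 lies at chr12:104100863-104101162 on the plus strand, Mmp14 at chr14:54431348-54431647 on the plus strand, and Timp2 at chr11:118355362-118355661 on the minus strand.
Serpina5: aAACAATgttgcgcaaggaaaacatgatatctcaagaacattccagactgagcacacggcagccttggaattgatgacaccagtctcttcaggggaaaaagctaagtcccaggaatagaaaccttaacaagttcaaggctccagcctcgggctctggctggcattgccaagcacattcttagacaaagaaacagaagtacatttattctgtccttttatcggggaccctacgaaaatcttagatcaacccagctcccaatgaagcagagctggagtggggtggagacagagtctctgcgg
Mmp14: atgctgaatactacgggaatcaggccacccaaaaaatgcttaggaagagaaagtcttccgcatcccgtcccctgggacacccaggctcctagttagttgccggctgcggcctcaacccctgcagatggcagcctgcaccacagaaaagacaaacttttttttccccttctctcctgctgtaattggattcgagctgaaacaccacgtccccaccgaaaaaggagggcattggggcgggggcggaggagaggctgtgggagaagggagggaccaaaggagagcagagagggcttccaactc
Timp2: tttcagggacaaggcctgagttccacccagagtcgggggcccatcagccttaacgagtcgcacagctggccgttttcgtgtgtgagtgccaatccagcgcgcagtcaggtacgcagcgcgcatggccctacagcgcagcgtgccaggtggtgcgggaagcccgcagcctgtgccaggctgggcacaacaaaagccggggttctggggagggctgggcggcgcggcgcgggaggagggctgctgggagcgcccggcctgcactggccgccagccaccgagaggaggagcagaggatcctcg

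In these windows Serpina5 held AACAAT once, beginning 249 bases before the start, and Mmp14 and Timp2 held none. The window of Adamts9, which read above in Sertoli cells without being called and is not printed, held none either. The letters were searched on both strands and were found in 10.7% of 32851 promoters of this length. The 62 protease and inhibitor genes that had an entry have 71 promoters, of which 6 (5 genes) held them. AAGGTCA, recognised by NR5A1, was in 4.72% of all promoters and in 6 of the 71 (6 genes). GTAAACA, recognised by forkhead factors such as Foxl2, was in 3.65% of all promoters and in 2 of the 71 (2 genes). None of the 3 printed windows held either of the last 2 motifs. The windows differ in base composition, with a GC content of 47.3% for Serpina5 against 68.7% for Timp2. A match is a description of the letters, not a bound site.

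Among the MMPs, 0 of 18 were called between the sorted groups, where 2.67% of all genes were, and 11 were above background. Mmp14, the main cell-surface activator of Mmp2, read 10.15 and 8.54 in pre-granulosa cells and 7.00 and 6.49 in Sertoli cells. Ovaries read 9.25 and 8.89, and testes 8.46 and 8.66. The Sertoli arrays were the lowest of the 4 groups, while the pre-granulosa arrays differed from each other by more than any other pair. The difference was -2.60 ± 0.51 (limma adjusted p = 0.0414). It was seen on the brightest probe set alone, since the other Mmp14 probe sets differed by -0.20 ± 0.19 and -0.33 ± 0.25.

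Mmp2, the gelatinase that Mmp14 activates, lay the other way. It read 8.14 and 7.05 in pre-granulosa cells, 9.42 and 9.71 in Sertoli cells, 10.30 and 10.34 in ovaries, and 10.31 and 10.54 in testes. The difference between the sorted groups was 1.97 ± 0.35 (limma adjusted p = 0.0313), and the second probe set gave 2.57 ± 0.52 (0.0451). The pre-granulosa arrays were the lowest of all, and the gonad arrays were above the sorted ones as deposited. The interstitial marker mean was 7.23 and 8.43 on the pre-granulosa arrays, and its part in the Mmp2 values was not tested.

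Mmp23, a membrane-bound enzyme known for its expression in reproductive tissues, read 10.57 and 10.04 in pre-granulosa cells, 9.20 and 9.08 in Sertoli cells, 9.47 and 9.73 in ovaries, and 8.51 and 9.02 in testes. XX arrays lay above the XY arrays of the same kind of sample. The difference was -1.16 ± 0.26 (limma adjusted p = 0.0602) and the second probe set gave -1.12 ± 0.24 (0.0542), so neither was called. Mmp11, a stromelysin, read 9.52 and 8.44 against 9.79 and 9.59, a difference of 0.71 ± 0.37. Mmp9, the other gelatinase, stayed low in every group, from 4.95 in a Sertoli array to 6.29 in a testis array. Mmp16 spanned background in the sorted cells, at 4.32 and 5.13 against 3.88 and 4.64.

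Of the 15 ADAMTS proteases 0 were called between the sorted groups, against 2.67% of all genes. An unadjusted limma p under 0.05 was found for 5 of them, and for 22.4% of all genes. Adamts9, which cuts versican and aggrecan, was the brightest, at 10.54 and 11.27 in pre-granulosa cells, 12.28 and 12.21 in Sertoli cells, 11.37 and 11.34 in ovaries, and 12.22 and 12.14 in testes. XY arrays were above XX arrays in both kinds of sample. The difference was 1.34 ± 0.24 (limma adjusted p = 0.0334). A second probe set showed a wider gap of 2.90 ± 0.55 (0.0380), and the dimmest gave -0.13 ± 0.33.

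Adamts16, a protease implicated in testis development and blood pressure, read 8.34 and 8.82 in pre-granulosa cells, 9.94 and 10.04 in Sertoli cells, 7.89 and 7.75 in ovaries, and 8.33 and 8.96 in testes. The Sertoli arrays were the highest of the 4 groups. The difference was 1.41 ± 0.26 (limma adjusted p = 0.0358), and the dim second probe set gave -0.20 ± 0.19.

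Adamts19 and Adamts4 lay on the pre-granulosa side with wide spread. Adamts19 read 5.51 and 8.40 in pre-granulosa cells and 4.43 and 4.20 in Sertoli cells, where it was not above background. Its difference of -2.64 ± 0.90 (limma adjusted p = 0.179) rested on the second pre-granulosa array. With Sertoli cells set at background, the mean of the pre-granulosa arrays lay 4.51-fold above. That mean was carried by the second array (8.40, against 5.51 on the first), so this fold is not a lower bound. Adamts4, a proteoglycan-cutting enzyme, read 6.98 and 8.84 against 6.32 and 6.24, a difference of -1.63 ± 0.55 (0.177). Here too the second pre-granulosa array was the high one. Adamts1, which cuts versican in the ovulating follicle of the adult, differed by -0.50 ± 0.33, and Adamts5 by 0.64 ± 0.29 near background. The 5 ADAMTS-like genes, which lack the protease domain, had differences of 0.09 to 0.40.

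Of the TIMPs, 0 of 4 were called between the sorted groups, against 2.67% of all genes. Timp1 read 8.55 and 8.77 in pre-granulosa cells and 8.75 and 8.52 in Sertoli cells, a difference of -0.03 ± 0.19. Timp3, the matrix-bound inhibitor that also blocks ADAMTS enzymes, read 8.16 and 9.41 against 9.06 and 8.68, a difference of 0.08 ± 0.40. Timp4 lay near background at 5.90 and 5.12 against 4.29 and 5.29.

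Timp2 was the TIMP with the largest gap. It read 9.49 and 8.44 in pre-granulosa cells, 8.08 and 6.94 in Sertoli cells, 9.53 and 9.24 in ovaries, and 9.17 and 8.95 in testes. The Sertoli arrays lay lowest on this probe set, at -1.45 ± 0.47 relative to pre-granulosa cells (limma adjusted p = 0.161). A second probe set read 8.53 and 7.86 against 5.93 and 6.35, a difference of -2.05 ± 0.31 (0.0176), and another gave -1.45 ± 0.32 (0.0611). The other 3 probe sets, 1 of them not above background on any array, ranged from -0.11 to 0.32. The pre-granulosa arrays were thus above the Sertoli arrays on 3 of 6 Timp2 probe sets, none of them called.

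**Figure D2:**
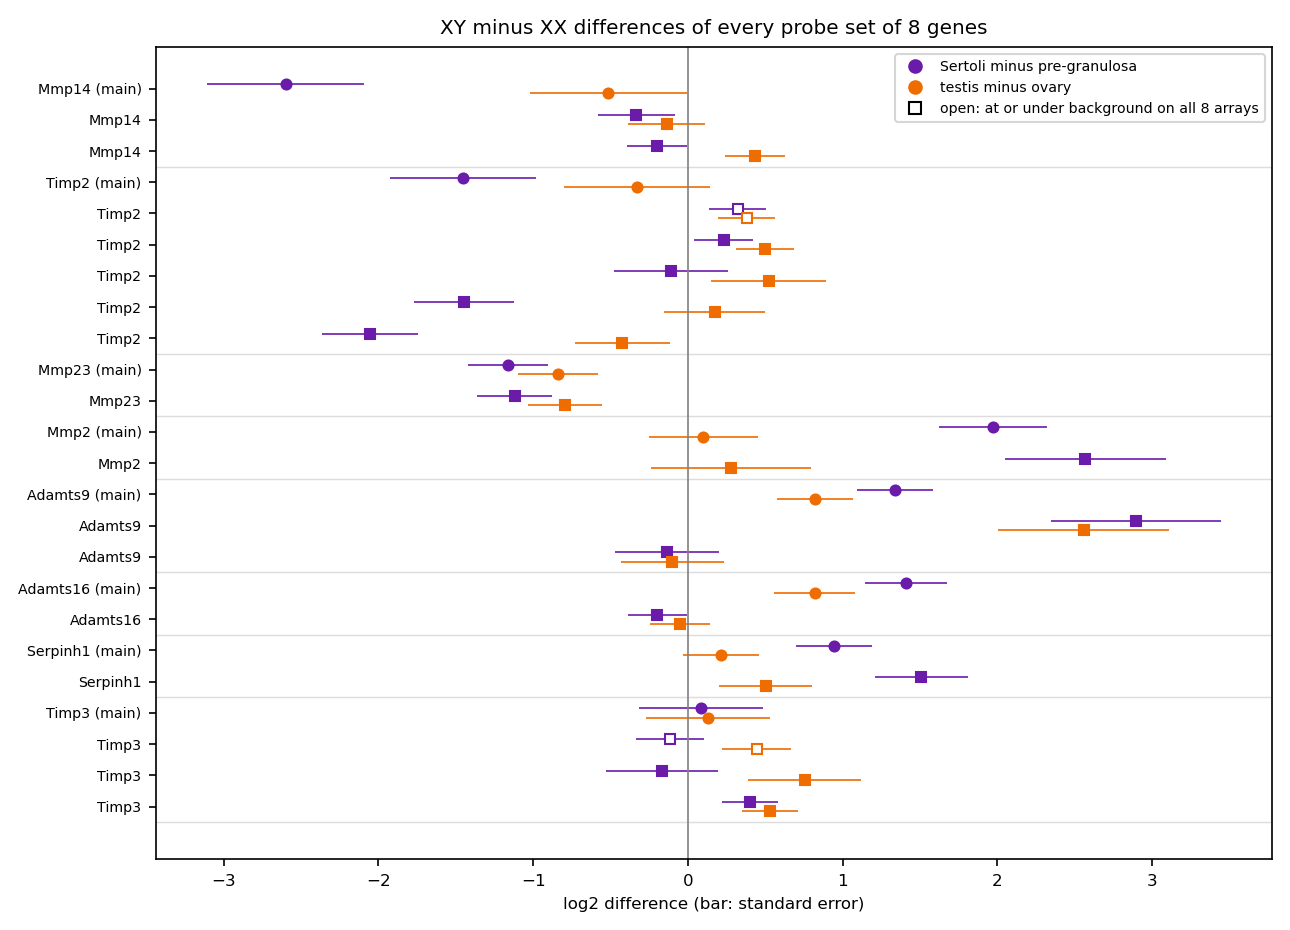
Log2 difference with its standard error for every probe set of 8 genes, for Sertoli minus pre-granulosa (purple) and testis minus ovary (orange); circles mark the probe set used for the gene and open squares those at or under background on all 8 arrays. Both Mmp2, Mmp23 and Serpinh1 probe sets lay on the same side for the sorted cells, while the probe sets of Mmp14 (-2.60, -0.33 and -0.20) differed in size and those of Timp2 (-2.05 to 0.32) in size and sign.

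Beyond the 2 called serpins, Serpina3a had the widest gap among the 85 genes. It belongs to the antichymotrypsin-like cluster on chromosome 12, whose copies are near-identical, so its probe set may read several of them. It read 6.29 and 5.05 in pre-granulosa cells, 8.84 and 8.84 in Sertoli cells, 7.17 and 7.74 in ovaries, and 8.73 and 8.38 in testes. XY arrays were above XX arrays in both kinds of sample. The difference was 3.17 ± 0.42 (limma adjusted p = 0.0119). It was wider than that of Serpina5 with a larger standard error, and was not called.

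Serpinh1, the endoplasmic reticulum chaperone of procollagen and no protease inhibitor, read 8.50 and 8.99 in pre-granulosa cells, 9.47 and 9.91 in Sertoli cells, 10.96 and 11.17 in ovaries, and 11.16 and 11.40 in testes. The sorted groups did not overlap, and both gonads were above both. The difference was 0.94 ± 0.24 (limma adjusted p = 0.0917), and 1.51 ± 0.30 (0.0430) on the second probe set.

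Serpinf1, the secreted anti-angiogenic factor PEDF, was bright in all groups. It read 10.39 and 10.98 in pre-granulosa cells, 10.14 and 9.87 in Sertoli cells, 10.49 and 10.86 in ovaries, and 9.67 and 9.91 in testes. XX arrays were above XY arrays within each kind of sample, with a difference of -0.68 ± 0.26 (limma adjusted p = 0.223) between the sorted groups. Serpinb6a, an intracellular inhibitor, was the brightest serpin at 11.13 and 10.82 against 11.81 and 11.67, a difference of 0.76 ± 0.16 (0.0559). Serpini1, the neuronal inhibitor of Plat, read 6.42 and 6.57 against 6.81 and 8.58, and its difference of 1.20 ± 0.53 rested on the second Sertoli array. The remaining members of clade A and clade B, the largest serpin groups with 14 and 18 genes, gave differences from -0.55 to 0.63.

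No gene of the plasminogen activator system was called between the sorted groups, where 2.67% of all genes were. Plau, the urokinase, was not above background in either sorted group (4.23 to 4.43), and its receptor Plaur read 5.33 to 5.45. Plat, the tissue activator, read 6.32 and 6.76 in pre-granulosa cells and 6.48 and 7.04 in Sertoli cells, a difference of 0.22 ± 0.25. Its second probe set read 8.28 and 8.05 against 6.98 and 5.95, a difference of -1.70 ± 0.40 (limma adjusted p = 0.0735). The 2 Plat probe sets therefore differed in sign, and the gene's direction cannot be told.

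Between whole testes and whole ovaries none of these genes passed the test. With limma, 0 of 85 genes were called for testis minus ovary, where 0.352% of all genes were, and 14 of the 85 (16.5%) had an unadjusted p under 0.05, against 11.5% of all genes. The testis arrays lay wholly above the ovary arrays for 17 genes and below for 25 (20.0% and 29.4%, against 24.4% and 30.7% of all genes). The median difference was -0.02 over the 85 genes and -0.04 over all genes. The smallest adjusted p belonged to Serpina5, whose testis arrays (5.80 and 5.37) were above and whose ovary arrays (4.25 and 4.26) were under background. The difference was 1.34 ± 0.20 (limma adjusted p = 0.0606), or at least 1.75-fold against background.

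Several genes read above in testis arrays without passing the test. Adamts20, which acts on melanoblast migration through versican, read 6.59 and 7.53 in ovaries and 9.36 and 9.39 in testes, a difference of 2.31 ± 0.65 (limma adjusted p = 0.288). In the sorted cells it was at or under background in 3 of 4 arrays. Mmp19 read 5.87 and 5.17 against 7.31 and 7.27, a difference of 1.77 ± 0.37 (0.144). Timp1 read 8.01 and 8.14 against 9.36 and 9.00, a difference of 1.11 ± 0.19 (0.0873), although it did not separate the sorted cells. Adamts5 read 5.05 and 5.59 against 6.77 and 6.38, and Serpinb9, an inhibitor of granzyme B, 6.16 and 6.48 against 7.32 and 7.45. Mean interstitial marker levels were 10.5 and 10.8 in ovaries and 11.5 and 11.5 in testes, and Leydig markers 6.85 and 6.98 against 10.7 and 10.4, with 3 of 5 called higher. In whole gonads more cells of a type and more RNA per cell cannot be told apart.

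On the ovarian side Adamts19 had the widest gap, at 6.82 and 5.77 in ovaries against 4.71 and 5.31 in testes. Its difference was -1.28 ± 0.90, with 1 of 2 testis arrays above background. Serpinf1 differed by -0.89 ± 0.26, Mmp23 by -0.84 ± 0.26, Adamts15 by -0.67 ± 0.26 and Serpini1 by -0.75 ± 0.53. Mmp14 differed by -0.51 ± 0.51, Serping1 by -0.51 ± 0.32 and Mmp2 by 0.10 ± 0.35. The limma adjusted p-values of these 8 genes ran from 0.309 to 0.999.

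The comparisons within sorted cells and within gonads share no array, so their directions can be set side by side. Arrays did not overlap, with XY above XX in both comparisons, for 9 of the 85 genes (10.6%, against 9.56% of all genes): Serpina5, Serpina3a, Mmp19, Serpinb9, Adamts9, Adamts16, Adamtsl3, Serpinb6a and Adamts5. XX was above XY in both for another 9 (10.6%, against 9.36%): Serpinf1, Serping1, Mmp23, Timp2, Adamts19, Mmp14, Mmp17, Mmp7 and Serpinb6c. The directions opposed each other for 4 genes, Serpini1, Serpinf2, Adamtsl2 and Serpinb3a. These shares are near those of all genes. Each gene was read here through its brightest probe set. A dimmer Mmp14 probe set had testes above ovaries without overlap, by 0.43 ± 0.19 (limma adjusted p = 0.595). The dimmest gave -0.14 ± 0.25 for testis minus ovary.

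**Figure D3:**
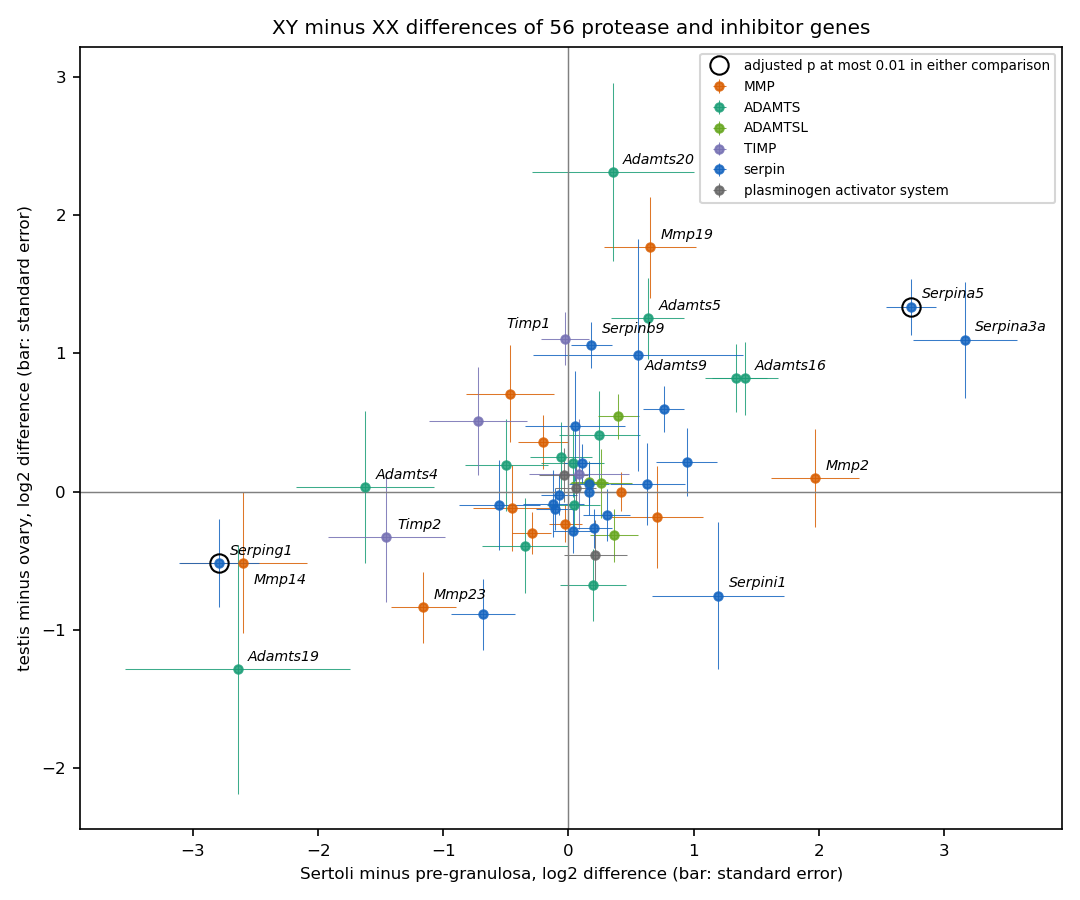
Testis minus ovary difference against Sertoli minus pre-granulosa difference (log2, bars: standard error) for the 56 genes above background in at least 1 array, coloured by family, with a ring around the genes called in either comparison. Serpina5 and Serping1 carry rings, and Mmp2 lies far along the sorted-cell axis (1.97) with a gonad difference of 0.10.

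The difference between these 2 contrasts was itself tested, and 0 of 85 genes and 0% of all genes were called, with 9 of the 85 (10.6%) at an unadjusted p under 0.05 in limma, against 2367 of all 18193 genes. Serping1 had the lowest value, with the sorted-cell difference less the gonad difference at -2.28 ± 0.45 (limma adjusted p = 0.126). Serpina5 gave 1.40 ± 0.29 (0.137), Mmp2 1.87 ± 0.50 (0.228) and Timp1 -1.13 ± 0.27 (0.183). A difference in response between sorted cells and gonads was therefore not detected for any of the genes with 2 arrays per group.

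Adamts12, Adamts20, Adamts3, Mmp19 and Serpinb9 were lower in Sertoli cells than in testes, and Serpina5 and Adamts16 were higher. For Sertoli minus testis, 7 of 85 genes were called (8.24%, against 6.87% of all genes), 2 higher and 5 lower in Sertoli cells (2.47% and 4.40% of all genes). For pre-granulosa minus ovary, 3 genes were called (3.53%, against 5.40%), all lower, as were 4.11% of all genes. The median difference of median-centred arrays for Sertoli minus testis was 0.20 over the 85 genes and 0.10 over all genes. For pre-granulosa minus ovary it was 0.08 and -0.01. Over the 56 genes above background in at least 1 array the medians were -0.15 and -0.07. The positive medians thus depended on including the 29 genes at or under background on all arrays.

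Adamts12 was lower in both sorted groups than in their gonads. It read 5.05 and 4.70 in pre-granulosa cells, 5.04 and 4.60 in Sertoli cells, 7.69 and 8.01 in ovaries, and 7.91 and 8.30 in testes. The sorted arrays were at the edge of background and every gonad array was far above it. After centring the difference was -2.89 ± 0.25 for Sertoli minus testis (limma adjusted p = 0.00219) and -2.59 ± 0.25 for pre-granulosa minus ovary (0.00295).

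Adamts20 read 5.15 and 3.27 in Sertoli cells against 9.36 and 9.39 in testes, a difference of -4.76 ± 0.64 (limma adjusted p = 0.00644), with 1 of 2 Sertoli arrays above background. Adamts3, which processes procollagens, was not above background in either sorted group, and testes read 6.99 and 6.67. The difference of -2.04 ± 0.32 (0.00937) left testes at least 3.13-fold higher. Mmp19 read 4.87 and 3.90 against 7.31 and 7.27, a difference of -2.50 ± 0.37 (0.00798), again with 1 of 2 Sertoli arrays above background, and Serpinb9 differed by -1.20 ± 0.16 (0.00665). For pre-granulosa minus ovary Adamts20, Adamts3, Mmp19 and Serpinb9 gave -2.82 ± 0.64, -1.90 ± 0.32, -1.40 ± 0.37 and -0.34 ± 0.16, with limma adjusted p-values of 0.0291, 0.0127, 0.0423 and 0.174. Pre-granulosa arrays were not above background for Adamts20, Adamts3 and Mmp19, so the ovaries read at least 3.72-fold, 2.39-fold and 1.28-fold above them.

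Serpina5 and Adamts16 were the 2 genes higher in Sertoli cells than in testes. Serpina5 differed by 1.52 ± 0.20 (limma adjusted p = 0.00590) and Adamts16 by 1.74 ± 0.27 (0.00916). The second, dimmer probe set of Adamts16 differed by -0.015 ± 0.19 and was not called. Adamts16 also lay above in pre-granulosa cells relative to ovaries, by 1.14 ± 0.27 (0.0326, not called). Serpina5 gave 0.10 ± 0.20 there, with both XX groups under background.

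The other genes lower in pre-granulosa cells than in ovaries were Mmp2 and Serpinh1. Mmp2 differed by -2.35 ± 0.35 (limma adjusted p = 0.00901) and by -3.49 ± 0.52 (0.00892) on its second probe set, against -0.46 ± 0.35 for Sertoli minus testis. Serpinh1 differed by -1.94 ± 0.25 (0.00620) and -2.41 ± 0.30 (0.00586), against -1.19 ± 0.25 (0.0208). Of the interstitial markers 3 of 8 were lower for pre-granulosa minus ovary and 4 of 8 for Sertoli minus testis, of the germ cell markers 7 and 8 of 9, of the endothelial markers 5 and 1 of 12, and of the erythroid markers 2 and 3 of 5. The part of these cells in the calls was not tested.

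With any probe set counted, 11 of the 85 genes were called for Sertoli minus testis, against 2067 of all 18193 genes. For pre-granulosa minus ovary it was 4 of the 85, against 1668 of all genes. Main probe sets alone gave 7 and 3, against 1250 and 982 of all genes. Calls over all genes thus rose as well, so a gain is no feature of the protease and inhibitor genes. Reading every probe set added genes whose main probe set was not called. For Sertoli minus testis these were Timp2 (-3.07 ± 0.33, limma adjusted p = 0.00372), Mmp16 (-1.39 ± 0.16, 0.00429), Timp3 (-1.27 ± 0.18, 0.00741) and, in the other direction, Serpinb8 (1.90 ± 0.24, 0.00559). The Mmp16 probe set was not above background in Sertoli cells, which leaves testes at least 1.25-fold higher, and that of Serpinb8 not in testes, which leaves Sertoli cells at least 1.96-fold higher. For pre-granulosa minus ovary it was Adamtsl1 (-2.31 ± 0.33, 0.00820), whose main probe set differed by 0.25 ± 0.15. The called probe set was not above background in pre-granulosa cells, so ovaries were at least 2.60-fold higher on it.

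The counts from main probe sets depended on single arrays. For Sertoli minus testis 0 calls were left without either testis array or without Sertoli replicate 2, 2 of the 7 were left without Sertoli replicate 1 (3 called in all), and 1 without either ovary array. For pre-granulosa minus ovary 0 were left without either ovary or either testis array, and 6 were called without pre-granulosa replicate 2. Without centring 8 genes were called for pre-granulosa minus ovary instead of 3.

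**Figure D4:**
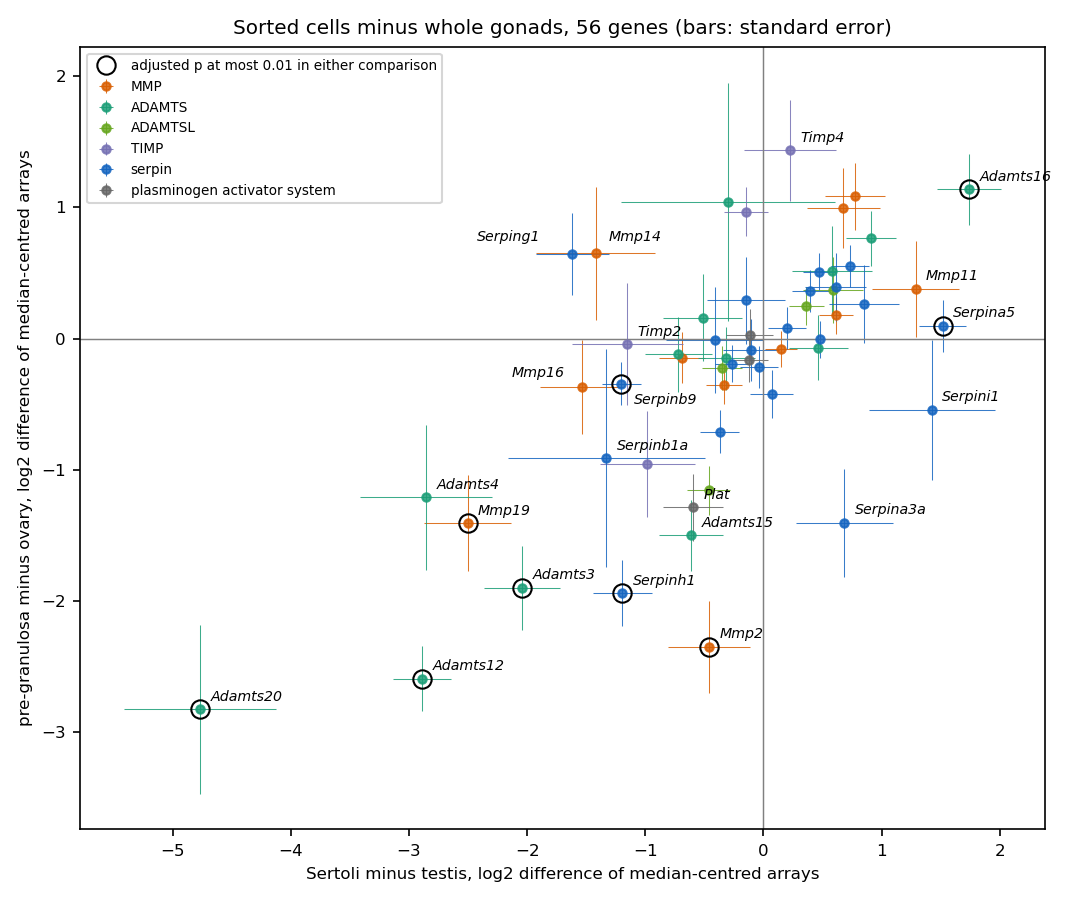
Pre-granulosa minus ovary difference against Sertoli minus testis difference (log2, arrays less their medians, bars: standard error) for the 56 genes above background in at least 1 array, with a ring around genes called in either comparison. Adamts20, Adamts12 and Adamts3 lie at the lower left, and Adamts16 at the upper right (1.74 and 1.14).

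Other genes of the same pathways were called between the sorted cells. Of 48 further extracellular proteases 3 were higher in Sertoli cells and 0 lower, beside 1.62% and 1.05% of all genes. These further lists were chosen with earlier results of these data known, so their counts describe the listed genes and test nothing against all genes. Adam12, a membrane metalloprotease, read 3.95 and 4.10 in pre-granulosa cells and 6.98 and 6.84 in Sertoli cells, at least 4.36-fold higher (limma adjusted p = 0.000999). The cathepsin Ctsl differed by 2.98 ± 0.25 (0.00305) and the proprotein convertase Pcsk5 by 3.06 ± 0.17 (0.00122). Adam12 was also higher in testes than in ovaries, by 2.14 ± 0.15 (0.00442), the one call of these lists in that comparison.

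Of 34 further inhibitors and receptors, 1 was higher and 2 were lower in Sertoli cells. Spint2, a Kunitz inhibitor of membrane serine proteases, was higher by 2.89 ± 0.26 (limma adjusted p = 0.00392). Thbs2, a thrombospondin that clears Mmp2, was lower, with a difference of -4.39 ± 0.25 (0.00122). Reck, a membrane-anchored inhibitor of MMPs including Mmp14, read 8.51 and 8.58 in pre-granulosa cells and 7.25 and 7.18 in Sertoli cells, a difference of -1.33 ± 0.16 (0.00878). Of 17 proteoglycan and matrix substrates Fbln2 was higher, by 3.04 ± 0.35 (0.00739) with 1 of 2 pre-granulosa arrays above background, and 0 were lower. The versican gene Vcan, a substrate of Adamts9, read 6.89 and 8.50 against 9.84 and 9.60, a difference of 2.02 ± 0.51 (0.0826).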

How the data were processed

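Per the labels, labelled cDNA was made from about 20 ng of total RNA with a NuGEN kit, and about 2.5 µg was hybridised. Values were deposited as log2, and RMA is named in the submitters' processing notes without a version. The authors' R/maanova test was not used here. Ranked values and decimals differ between sorted-cell and gonad arrays, and no label records whether the sets were normalized apart. XX and XY groups were compared on values as deposited, and sorted cells with gonads on arrays less their median.

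R 4.3.3 and limma 3.58.1 fitted a mean for each group to all 8 arrays (lmFit, eBayes, no covariate), leaving 4 residual degrees of freedom. P-values are two-sided, with Benjamini-Hochberg adjustment across the 45037 probe sets that are not controls. The procedure was tested on simulated data. Of 45101 probe sets, 34945 carry a single symbol, 932 several and 9160 none. All 85 symbols matched RefSeq by gene identifier.

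Genes named are every gene with a called probe set, the 6 highest and 6 lowest uncalled differences without overlap that passed background, and a fixed list of major family members. Members and lists were chosen with earlier results of these data known. A bound sets a group that is nowhere above background at 4.78, or at its own value where higher, after the same centring. Alternatives were quantile normalization, centring, a filter on dim probe sets, moderation, group weights, fewer arrays, a replicate block, threshold, any probe set, and omission of each array. Deviations of arrays with the same replicate number correlated at -0.156 to 0.0493. No pairing by number was seen, though the labels do not settle whether samples were paired. Promoters are the RefSeq entries of build GRCm38.p6. Serping1, Mmp2 and Adamts16 are named only. The number of arrays limits the precision.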

Additional observations from a re-analysis of the deposited data

How the results depend on the processing

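The limits lie in the 2 arrays per group. For Sertoli minus pre-granulosa, where 2 of the 85 genes were called, one weight per group and a fit on the 4 arrays of these groups each gave 0, the replicate block 1 and an adjusted p threshold of 0.05 gave 7, and omission of single arrays gave 0 to 5. Serping1 had an adjusted p of 0.0136 with the replicate block. For Sertoli minus testis (7 called), group weights gave 12, only the 4 arrays 3, the replicate block 2, any probe set 11, the threshold of 0.05 gave 21, and single omissions 0 to 9. For pre-granulosa minus ovary (3 called), values with no centring gave 8, trend and robust moderation 5, group weights 1, only the 4 arrays 0, the threshold of 0.05 gave 20, and single omissions 0 to 6. At the threshold of 0.05 the share called for Sertoli minus testis was 24.7% of the 85 genes, against 25.6% of all genes. For pre-granulosa minus ovary it was 23.5% against 21.4%. Group weights gave 2399 and 482 calls over all genes in these comparisons, where the main fit gave 1250 and 982. Counting any probe set gave 2067 and 1668 over all genes. Testis minus ovary and the difference of the contrasts gave 0 under each alternative run. Over all genes the number called for Sertoli minus pre-granulosa was 485, against 174 with group weights, 0 with only the 4 arrays, and 64 to 916 with 1 array left out. No pairing of samples by replicate number was seen, and the block left 209 genes. Of 1182 alternative values of 154 named differences, 54 had the other sign, 47 of them where the difference was smaller than its standard error, and 0 among the 12 called differences. Signs turned for Adamtsl1 with no centring, at -0.037 for Sertoli minus testis and -0.13 for pre-granulosa minus ovary. With a single pre-granulosa array left out, pre-granulosa minus ovary ranged from -0.41 to 2.50 for Adamts19, -0.15 to 0.91 for Mmp11, -0.15 to 1.44 for Mmp14 and -0.78 to 0.043 for Mmp16, and the difference of the contrasts of Adamts19 from -2.80 to 0.080. The cause of these changes was not tested.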
